A study of Mus musculus with 15 samples.

Results

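Genes that hold back cell division or set the replicative limit of a cell were examined for H3K4me3 at their promoters: the INK4 inhibitors Cdkn2a, Cdkn2b, Cdkn2c and Cdkn2d, the CIP/KIP inhibitors Cdkn1a and Cdkn1b, the tumour suppressors Trp53 and Rb1, the p53 antagonist Mdm2 and the telomerase subunit Tert. These 10 genes, of 78289 annotated mouse genes and 21770 protein-coding ones, were chosen by name. No rule on their values was used, but earlier results of these data were known. H3K4me3, trimethylation of histone H3 at lysine 4, marks active and poised promoters. It was measured by chromatin immunoprecipitation followed by sequencing (ChIP–seq) in 12 samples, 4 in each of 3 conditions, with 1 input sample per condition. The deposited data hold 1 peak list per condition, called on its 4 replicates together.

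The cells were mBA cells, a brown adipocyte culture from mouse brown adipose tissue. The study's methods describe differentiating such cells into mature brown adipocytes with dexamethasone, IBMX, insulin and triiodothyronine. The WT cells were wild type and untreated, the WT + 2HG cells were wild type and received a cell-permeable 2-hydroxyglutarate (octyl d-2HG) dissolved in DMSO, and the CLPP-KO cells, also labelled untreated, lacked CLPP, a protease of the mitochondrial matrix. All were grown in high-glucose medium without pyruvate. CLPP-KO cells alone received uridine, and no DMSO-only sample was analysed here, so genotype and uridine, and 2HG and DMSO, cannot be told apart. The labels call the cells primary, whereas the methods of the study describe immortalization with the SV40 large T antigen, driven by the PGK promoter of a lentivirus. All 3 conditions would share that antigen. The reporting summary of the study says that the control and knockout lines were derived from pooled animals of both sexes, and defines a biological replicate as an independent culture of cells. The replicates thus stand for cultures and not for separate animals.

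Large T antigen binds the p53 and RB proteins, so cells that carry it can divide while the genes of both pathways remain intact. In a normal cell, INK4 proteins inhibit CDK4 and CDK6 and CIP/KIP proteins inhibit CDK2 complexes, which keeps RB active and E2F-driven genes silent, while ARF, made from Cdkn2a in another reading frame, blocks MDM2 and so stabilizes p53. Cdkn2a and Cdkn2b lie side by side, are silenced by Polycomb complexes in young cells and are classical markers of senescence, and in adipose tissue their rise accompanies ageing. A promoter peak says that H3K4me3 was found there and does not measure transcription.

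A gene was counted as marked when a peak overlapped the 2000 bp either side of any of its annotated transcript starts. Each peak carries an area under its curve, which is not scaled between lists, so it was turned into a percentile, the share of the peaks of its own list with the same or a smaller area. The lists held 12342 peaks in WT, 14059 with 2HG and 15118 in CLPP-KO, with median widths of 825.0, 885.0 and 868.0 bp. The percentile of a gene marked in all 3 lists tended to be higher in the longer lists of WT + 2HG and CLPP-KO. Among 11021 coding genes marked in all 3, the median difference from WT was 3.69 points in WT + 2HG and 5.30 points in CLPP-KO. A member's difference from WT by area in the full lists is therefore given with its rank, the share of these genes whose difference was the same or lower. Percentile differences by the p-value of the summit, by peak width or by area per bp have no rank. How ordinary these are among coding genes is not known. With 1 list per condition there is no replicate spread, no test was possible, and all differences are descriptions of the lists. The lists hold no read counts, so the depth of each sample could not be taken from them.

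All 10 genes had a promoter peak in WT, where 51.3% of coding genes had one. All 10 also had one in WT + 2HG, against 56.4% of coding genes, and in CLPP-KO, against 58.2%. With all 10 marked in WT, no member could count as gained in WT + 2HG (5.64% of coding genes were) or in CLPP-KO (7.25%). None was lost. The strongest promoter peak lay above the median of its list for 8 members in WT, 7 with 2HG and 8 in CLPP-KO, where 61.3%, 69.4% and 73.1% of the coding genes marked in all 3 lists did so. The members' median percentile was 80.4 in WT, 88.4 with 2HG and 89.5 in CLPP-KO, above the 59.3, 60.6 and 62.0 of all marked coding genes. Of the members, 4 (Cdkn2a, Cdkn2c, Cdkn1b and Trp53) had 2 or more promoter peaks in WT (17.6% of these coding genes did), and 2 (Cdkn2a and Trp53) had them in each of the other lists (17.3% in WT + 2HG, 17.6% in CLPP-KO). In WT the order ran from Cdkn2c, Rb1, Cdkn2a, Cdkn1a and Mdm2 through Cdkn1b, Cdkn2d and Tert to Cdkn2b and Trp53, and without a replicate spread it cannot be said which neighbours in it differ. 

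**Figure D1:**
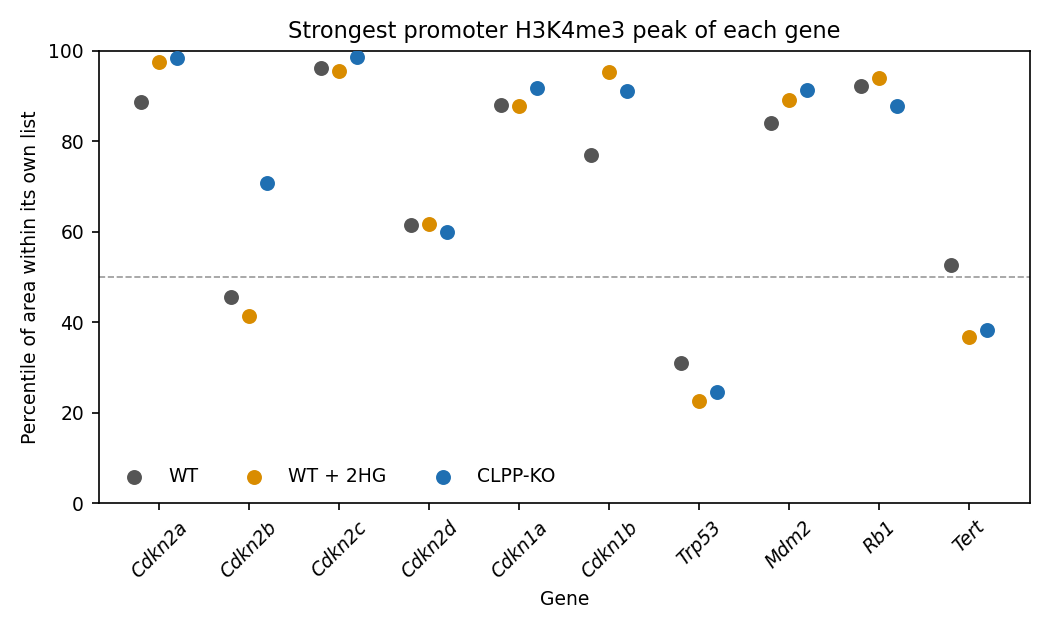
Percentile of area within its own list (vertical axis, 0 to 100) for the strongest promoter peak of each of the 10 genes in WT (grey), WT + 2HG (orange) and CLPP-KO (blue), with the list median as a dashed line. Trp53 was lowest in every list (31.0, 22.5 and 24.5), Tert lay below the median line in WT + 2HG and CLPP-KO only, and Cdkn2b above it in CLPP-KO only.

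Cdkn2a and Cdkn2b lie next to each other on chromosome 4. Cdkn2a (chr4:89192708-89212890, GRCm39, minus strand) has 2 annotated starts 12461 bp apart. The upstream one, at position 89212890, begins the ARF transcript and the downstream one, at 89200429, the INK4A transcript. Cdkn2b (chr4:89223204-89229276, minus strand), which encodes another CDK4 and CDK6 inhibitor, has a single start. The 250 bp upstream of these 3 starts are printed because these neighbouring starts carried marks of very different strength. They were read from the GRCm39 genome on the strand of the gene, and capitals mark the Sp1 letters GGGCGG and the E2F letters, sought on both strands.
Cdkn2a ARF start, chr4:89212891-89213140, minus strand: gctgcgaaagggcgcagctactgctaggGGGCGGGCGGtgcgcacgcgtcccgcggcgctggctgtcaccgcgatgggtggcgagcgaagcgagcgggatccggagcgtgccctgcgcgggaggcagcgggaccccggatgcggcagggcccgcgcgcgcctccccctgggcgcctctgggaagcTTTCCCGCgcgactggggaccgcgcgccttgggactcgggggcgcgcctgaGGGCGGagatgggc
Cdkn2a INK4A start, chr4:89200430-89200679, minus strand: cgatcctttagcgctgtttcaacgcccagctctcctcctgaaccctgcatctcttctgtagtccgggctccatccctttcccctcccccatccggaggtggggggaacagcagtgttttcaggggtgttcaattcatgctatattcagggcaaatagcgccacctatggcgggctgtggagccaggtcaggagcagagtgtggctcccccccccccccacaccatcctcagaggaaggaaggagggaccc
Cdkn2b start, chr4:89229277-89229526, minus strand: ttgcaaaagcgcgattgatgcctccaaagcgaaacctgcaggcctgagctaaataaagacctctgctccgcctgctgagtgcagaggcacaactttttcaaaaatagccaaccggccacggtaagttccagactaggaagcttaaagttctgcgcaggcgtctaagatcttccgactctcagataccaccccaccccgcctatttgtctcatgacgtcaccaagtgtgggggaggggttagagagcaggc

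The ARF window held 3 matches to the Sp1 letters, a pair of them overlapping, and 1 to the E2F letters. The INK4A and Cdkn2b windows held none. Over the 250 bp upstream of the canonical start of 21769 coding genes, the Sp1 letters occurred in 36.3% and any of the 3 E2F strings searched (TTTCGCGC, TTTGGCGC and TTTCCCGC) in 1.87%. Over the canonical starts of the members, the Sp1 letters occurred at 7 of 10 and an E2F string at 2 of 10 (Cdkn2d and Rb1). CCAAT occurred at 4 of 10, against 36.5% of coding genes, and TATAAA at 1 of 10, against 11.9%. Within 250 bp either side of the start, GC content was 72.1% at ARF, 61.3% at INK4A and 60.7% at Cdkn2b, and the observed over expected number of CpG dinucleotides was 0.983, 0.595 and 0.760. A match of letters is a description of the sequence and does not show that a factor binds there.

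The ARF start of Cdkn2a lay in a strong and wide peak in each list. In WT the peak ran over chr4:89212374-89214152, 1779 bp, at the 88.7th percentile of area. In WT + 2HG it covered chr4:89212188-89214179, 1992 bp, at the 97.4th, and in CLPP-KO chr4:89212162-89214576, 2415 bp, at the 98.4th. Percentile and width were thus highest in CLPP-KO, and both edges lay further out there than in WT. Of its bases, 1262 in WT, 1289 with 2HG and 1686 in CLPP-KO lay upstream of Cdkn2a, where the lncRNA Gm12610 starts at position 89213049 on the opposite strand, so the mark of the 2 divergent starts cannot be told apart. The remaining bases covered the first exon of the ARF transcript, with its 190 coding bases, and the start of the intron.

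The INK4A start was marked far more weakly. Its peak was chr4:89199999-89200434 in WT, 436 bp at the 23.5th percentile, chr4:89200072-89200490 in WT + 2HG, 419 bp at the 24.7th, and chr4:89199811-89200480 in CLPP-KO, 670 bp at the 32.1st. It reached only 5 bp upstream of the start in WT, 61 bp with 2HG and 51 bp in CLPP-KO, so that almost all of it lay downstream, over the first INK4A exon (207 bp, 126 of them coding) and the intron that follows. The differences of Cdkn2a from WT, taken at the ARF peak, were 8.76 points in WT + 2HG (rank 64.8) and 9.67 points in CLPP-KO (rank 62.6), both above the median of the coding genes. By summit p, the p-value of the peak summit, in place of area they were -0.0634 and -1.35 points. WT + 2HG was thus level with WT and CLPP-KO slightly below it. By area per bp they were 28.3 and 22.2 points. The width covered at both starts together was 2215 bp in WT, 2411 bp with 2HG and 3085 bp in CLPP-KO, and the CLPP-KO ratio of 1.39 had a rank of 80.7 among coding genes.

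Cdkn2b differed between WT + 2HG and CLPP-KO more than any other member. Its peak was chr4:89228410-89229321 in WT, 912 bp at the 45.6th percentile. It was chr4:89228617-89229359 in WT + 2HG, 743 bp at the 41.4th, and chr4:89228440-89229443 in CLPP-KO, 1004 bp at the 70.8th. The peak was thus narrower and lower in WT + 2HG than in WT and higher in CLPP-KO. The difference from WT was -4.22 points in WT + 2HG (rank 20.7) and 25.1 points in CLPP-KO (rank 90.5), and CLPP-KO exceeded WT + 2HG by 29.3 points. When each list was limited to its 12342 strongest peaks, the values were 45.6, 33.3 and 64.2. By peak width in place of area the CLPP-KO difference was 2.60 points. The direction in WT + 2HG depended on the measure, with a difference from WT of 1.96 points by summit p and 6.24 points by area per bp. All 3 peaks began within 167 bp upstream of the start and covered the whole of the first exon (374 bp). They also lay in the window of a start of Gm12610 and held 96 bp of its exons in WT, 91 bp with 2HG and 140 bp in CLPP-KO, so the marks of Cdkn2b and this lncRNA cannot be told apart. The coding genes nearest to Cdkn2b in the 3 percentiles together were Fblim1 (Euclidean distance 4.19 points), Il6ra (4.38) and Ephb6 (5.15), and 44 of 11020 genes lay within 10 points of it.

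CLPP-KO had a pair of further small peaks in the locus that the other lists lacked, neither within 2000 bp of a start. One, chr4:89194890-89195356, 467 bp at the 12.3rd percentile, covered 333 coding bases of Cdkn2a. The other, chr4:89225287-89225569, 283 bp at the 9.75th percentile, covered 258 coding bases of Cdkn2b. Both were weak peaks in exons, and 550 of the 15118 CLPP-KO peaks (3.64%) lay outside every promoter window and overlapped no peak of WT or WT + 2HG.

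**Figure D2:**
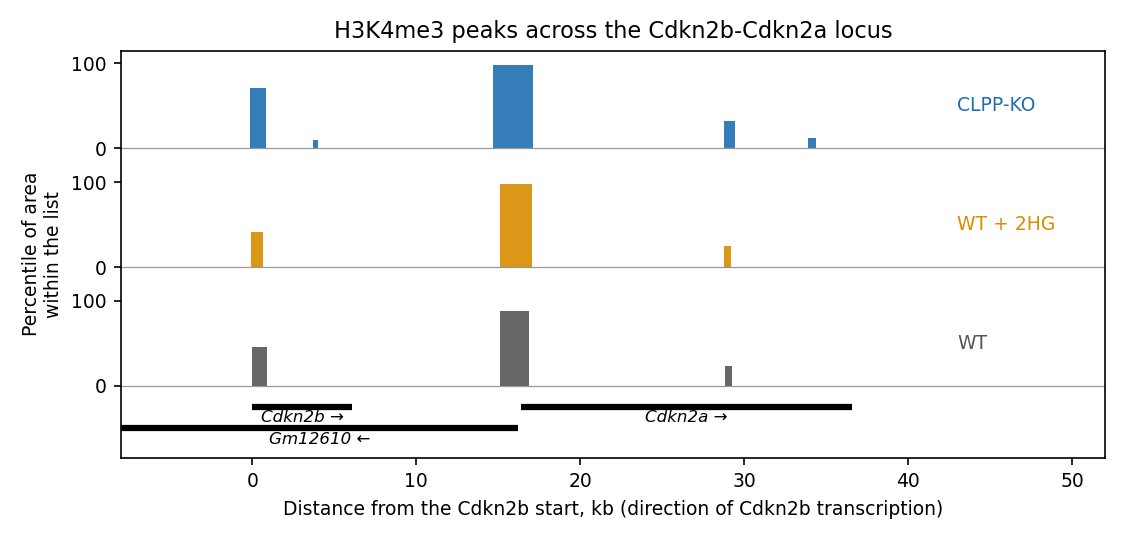
H3K4me3 peaks of CLPP-KO (top), WT + 2HG (middle) and WT (bottom) along the Cdkn2b and Cdkn2a genes, drawn by distance from the Cdkn2b start (horizontal axis, kb) with bar width as peak width and bar height as percentile within the list, and gene bodies as black lines with the direction of transcription. The ARF peak dominates every list, the INK4A peak stays at 32.1 or less, and the pair of small exonic peaks appears in CLPP-KO only.

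The percentiles of area of the remaining INK4 genes differed little between the 3 lists. Cdkn2c, an inhibitor of CDK4 and CDK6 on chromosome 4, had the strongest peak of all members in WT and CLPP-KO, at the 96.2nd percentile in WT, the 95.4th in WT + 2HG and the 98.5th in CLPP-KO. In WT it had 2 peaks, chr4:109522558-109523900 of 1343 bp and chr4:109524011-109524637 of 627 bp, separated by 110 bp. The other lists each had a single peak there, chr4:109522194-109524656 of 2463 bp with 2HG and chr4:109522678-109524608 of 1931 bp in CLPP-KO. The change from 2 peaks to 1 thus closed a short gap. The differences of Cdkn2c from WT were -0.790 points in WT + 2HG (rank 31.8) and 2.30 points in CLPP-KO (rank 39.7). By other measures the difference in WT + 2HG was larger, -11.1 points by summit p, -29.5 points by area per bp and 13.4 points by width. All of the larger WT peak, 1343 bp, was exon sequence of Cdkn2c ahead of its coding part. Cdkn2d encodes a further INK4 inhibitor. Its peak was chr9:21201659-21202501 in WT, 843 bp at the 61.6th percentile, chr9:21201795-21202620 in WT + 2HG, 826 bp at the 61.8th, and chr9:21201781-21202593 in CLPP-KO, 813 bp at 59.97. Its differences from WT were 0.235 points in WT + 2HG (rank 37.0) and -1.59 points in CLPP-KO (rank 23.4). Its percentiles spanned 1.82 points, but in lists of equal size they were 61.6 in WT, 56.5 with 2HG and 51.0 in CLPP-KO. The peak lay inside the gene, beginning 226 bp downstream of the canonical start in WT, 107 bp with 2HG and 134 bp in CLPP-KO.

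Cdkn1a encodes the CDK inhibitor that p53 induces, and its starts fall into 4 clusters. Its single peak was chr17:29312840-29314260 in WT, 1421 bp at the 87.9th percentile, chr17:29312580-29314453 in WT + 2HG, 1874 bp at the 87.7th, and chr17:29312868-29314336 in CLPP-KO, 1469 bp at the 91.8th. The peak covered the middle 2 clusters, among them the canonical start at position 29312738, which only the WT + 2HG peak itself reached (the WT and CLPP-KO peaks began 102 and 130 bp downstream). The first cluster, 2802 bp upstream of it at position 29309936, had no peak within 2000 bp in any list, the nearest edges being 2887, 2627 and 2915 bp away, and the last, at 29316874, was 2614, 2421 and 2538 bp away. The peak also lay in the window of Dino, a noncoding gene beside Cdkn1a. The differences of Cdkn1a from WT were -0.242 points in WT + 2HG (rank 34.3) and 3.83 points in CLPP-KO (rank 45.2). By summit p in place of area they were 23.7 and 18.7 points. By area per bp they were -12.8 points in WT + 2HG and 12.3 points in CLPP-KO, so the direction in WT + 2HG depended on the measure.

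The unmarked first start of Cdkn1a carried a match to the p53 response element, the 20-base site that p53 binds. The match, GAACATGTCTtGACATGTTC (chr17:29309902-29309921, the lower-case letter marking its single mismatch to the consensus), lay in no peak, 2919 bp from the nearest edge in WT, 2659 bp with 2HG and 2947 bp in CLPP-KO. No canonical start of a member had a match with at most 2 mismatches within 2000 bp, as 3.90% of coding genes did, and the other matches were 2 at unmarked starts inside Rb1. The search took only 20 adjoining bases with the core C and G letters of the consensus intact. Elements with a spacer or further from the consensus would be missed, so the lack of a match does not show that a gene has no p53 element. The windows upstream of the unmarked first start and the canonical start are printed for comparison, with the p53 element in capitals in the former and the Sp1 letters in capitals in the latter.
Cdkn1a first start, chr17:29309686-29309935, plus strand: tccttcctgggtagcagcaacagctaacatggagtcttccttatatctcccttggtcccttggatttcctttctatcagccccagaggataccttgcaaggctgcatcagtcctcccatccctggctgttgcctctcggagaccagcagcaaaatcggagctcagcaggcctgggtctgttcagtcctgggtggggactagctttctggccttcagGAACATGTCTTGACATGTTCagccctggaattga
Cdkn1a canonical start, chr17:29312488-29312737, plus strand: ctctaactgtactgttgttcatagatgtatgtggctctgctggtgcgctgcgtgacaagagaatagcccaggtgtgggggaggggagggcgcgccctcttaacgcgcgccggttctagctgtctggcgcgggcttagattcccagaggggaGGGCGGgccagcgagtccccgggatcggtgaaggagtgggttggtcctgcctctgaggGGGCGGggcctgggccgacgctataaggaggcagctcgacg

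These windows also differed in base composition. Within 250 bp either side, the first start had a GC content of 51.3% and a CpG ratio of 0.0922, and the canonical start 60.1% and 0.713. The same held over all members: the 14 start clusters with a peak in their window in every list had a median CpG ratio of 0.718 (0.476 to 1.07) and a median GC content of 61.3%, and the 13 clusters without one had 0.247 (0 to 0.584) and 49.1%, with overlapping ranges. The medians over coding genes were 0.601 and 57.1%. The members' 27 clusters hold 72 starts, of which peaks covered 47 in WT, 52 with 2HG and 49 in CLPP-KO. The unmarked clusters lay within Cdkn1a, Trp53, Mdm2, Rb1 and Tert, and 9 of the 13 begin no protein-coding transcript.

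Cdkn1b, the CIP/KIP inhibitor that holds cells in quiescence, was higher in WT + 2HG and CLPP-KO than in WT. Its strongest peak stood at the 76.8th percentile in WT, the 95.4th in WT + 2HG and the 91.2nd in CLPP-KO. These differences of 18.5 points (rank 85.1) and 14.3 points (rank 74.0) were above 10 points, as they were for 32% and 36.2% of coding genes. WT had 2 peaks, chr6:134896589-134897175 of 587 bp at the 34.5th percentile and chr6:134897394-134899347 of 1954 bp, and the 218 bp between them held both starts of the gene. WT + 2HG had a single peak, chr6:134896642-134899313 of 2672 bp, and so had CLPP-KO, chr6:134896597-134899166 of 2570 bp. The outer edges hardly moved, since the WT peaks and their gap together spanned 2759 bp. By summit p in place of area the differences were 0.804 points in WT + 2HG and -15.8 points in CLPP-KO, which turned the latter's direction. The single peaks of WT + 2HG and CLPP-KO hold bases that in WT belonged to both peaks. The WT peaks had areas of 1797.8 and 5599.6, and the WT percentile ranks the larger alone. How much of the differences comes from this split was not tested. Cdkn1b and Cdkn2c were the 2 members with 2 or more WT peaks and 1 in each of the other lists, a change shown by 6.2% of coding genes with 2HG and 6.15% in CLPP-KO.

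**Figure D3:**
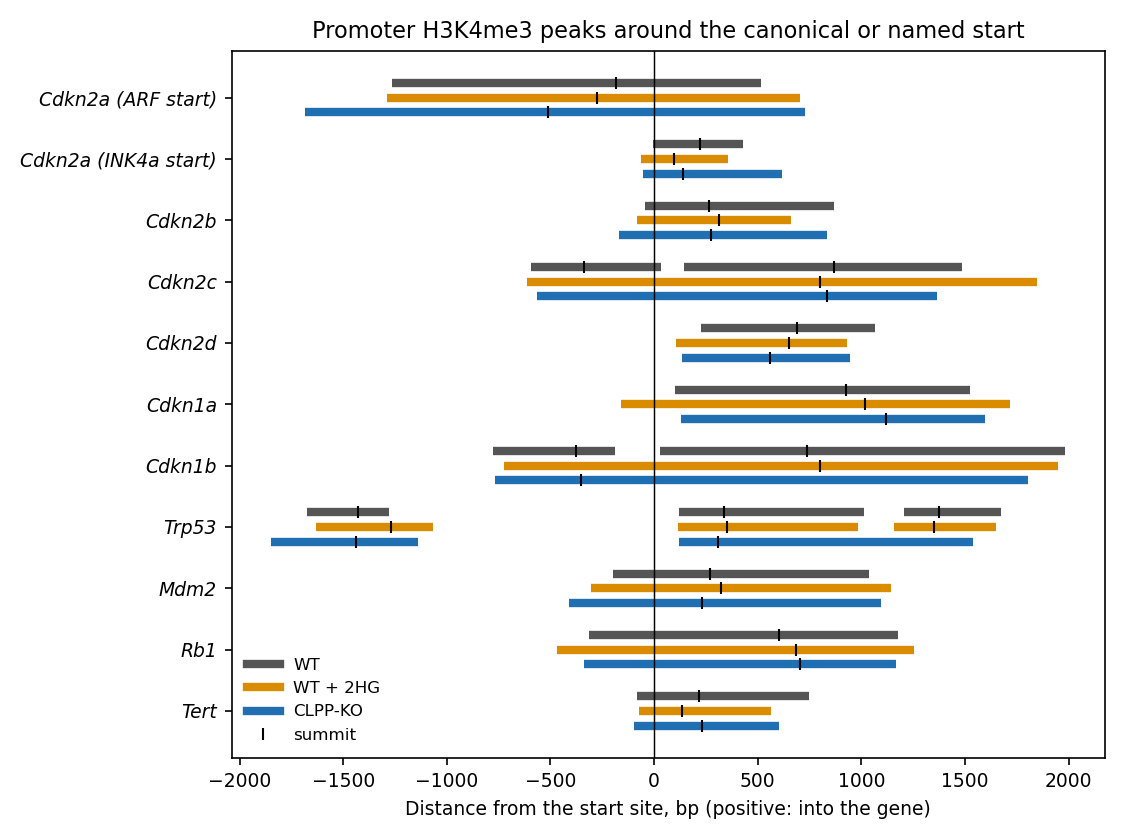
Promoter peaks of each gene in WT (grey), WT + 2HG (orange) and CLPP-KO (blue) as bars along the distance from the canonical start, or the named start for Cdkn2a (horizontal axis, bp, positive into the gene), with summits as black ticks. The gaps in the WT bars of Cdkn2c (110 bp) and Cdkn1b (218 bp) are closed in WT + 2HG and CLPP-KO, and Trp53 has separate short peaks on either side of its start.

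Trp53 (chr11:69469669-69482701, plus strand), which encodes p53, had the weakest promoter mark of the set in every list. Its strongest peak was chr11:69471229-69472123 in WT, 895 bp at the 31.0th percentile, chr11:69471224-69472091 in WT + 2HG, 868 bp at the 22.5th, and chr11:69471229-69472650 in CLPP-KO, 1422 bp at the 24.5th. The differences were -8.56 points (rank 11.8) and -6.56 points (rank 11.3). The direction turned with the measure, to 1.04 points in WT + 2HG by summit p and 26.3 points in CLPP-KO by width. Another peak around the first start of the gene, at position 69469669, measured 393 bp at the 12.3rd percentile in WT, 566 bp at the 20.5th in WT + 2HG and 708 bp at the 16.6th in CLPP-KO. One more peak further into the gene, 467 bp at the 6.22nd percentile in WT and 495 bp at the 10.4th in WT + 2HG, was 192 bp beyond the strongest peak in WT and was not separate in CLPP-KO. The strongest CLPP-KO peak ran into its bases, so the CLPP-KO width is that of a peak over bases that WT split.

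The area of the strongest Trp53 peak was nearly the same in the 3 lists, 1543.3 in WT, 1466.7 with 2HG and 1622.4 in CLPP-KO. The ratios to WT of 0.950 and 1.05 were low beside those of coding genes, whose medians were 1.94 and 2.27 (ranks 2.67 and 1.69). The CLPP-KO area includes bases of the further WT peak (area 319.6), which the WT area leaves out. In lists of equal size the difference reached -19.3 points (rank 6.49) in WT + 2HG and -23.5 points (rank 3.75) in CLPP-KO. The peaks also lay in the windows of Wrap53, a gene on the opposite strand whose protein carries telomerase to Cajal bodies, so the marks of the 2 genes cannot be told apart.

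Mdm2, the ubiquitin ligase that degrades p53, was strongly marked in all 3 lists. Its peak was chr10:117545625-117546859 in WT, 1235 bp at the 83.9th percentile, chr10:117545519-117546968 in WT + 2HG, 1450 bp at the 89.2nd, and chr10:117545570-117547072 in CLPP-KO, 1503 bp at the 91.4th. The differences of 5.24 points (rank 54.9) and 7.41 points (rank 56.5) ranked near the middle. By summit p they were -7.49 and 0.241 points, which turned the direction in WT + 2HG. The peak covered all 21 starts of the main cluster in every list. Rb1, the pocket protein that binds E2F, had its peak at chr14:73562331-73563819 in WT, 1489 bp at the 92.3rd percentile, at chr14:73562253-73563974 in WT + 2HG, 1722 bp at the 94.0th, and at chr14:73562338-73563846 in CLPP-KO, 1509 bp at the 87.8th. Its differences were 1.72 points (rank 43.3), or -2.70 by summit p, and -4.51 points (rank 15.5), and its 4 further starts, all inside the gene, were unmarked in every list.

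Tert, the catalytic subunit of telomerase, stood lower in WT + 2HG and CLPP-KO than in WT. Its peak was chr13:73774924-73775754 in WT, 831 bp at the 52.6th percentile. It was chr13:73774932-73775569 in WT + 2HG, 638 bp at the 36.8th, and chr13:73774908-73775608 in CLPP-KO, 701 bp at the 38.2nd. The upstream edge was within 98 bp of the start in each list, and the width differed at the edge inside the gene. The differences of -15.8 points (rank 4.13) and -14.4 points (rank 3.13) made Tert the only member at least 10 points below WT in either list, as 9.74% (WT + 2HG) and 6.56% (CLPP-KO) of coding genes were. Its area was 3184.5 in WT, 3182.0 with 2HG and 3713.8 in CLPP-KO, ratios of 0.999 (rank 3.50) and 1.17 (rank 2.79). Of the 831 bp in WT, 504 were coding bases of Tert, against 319 of 638 with 2HG and 358 of 701 in CLPP-KO. The single Sp1 match in the 250 bp upstream of the Tert start lay 27 bp before it.

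Over the 10 members, 5 percentiles were higher than in WT and 5 lower with 2HG treatment, and 6 were higher and 4 lower in CLPP-KO. Of the coding genes marked in all 3 lists, 64.3% were higher with 2HG and 69.9% in CLPP-KO. The median difference was -0.00361 points with 2HG and 3.06 points in CLPP-KO, below the 3.69 and 5.30 points of the coding genes. Cdkn1b stood at least 10 points above WT in both other lists and Cdkn2b in CLPP-KO, and Tert alone stood as far below. For Cdkn1b the WT value ranks only the larger of its 2 WT peaks, where the other lists had a single peak over both. The covered width was above WT for 7 members in each of the other lists (73.3% of coding genes with 2HG and 72.7% in CLPP-KO), with median ratios of 1.09 and 1.02 against 1.11 and 1.10 over coding genes. No member reached a ratio of 1.5, as 13.8% and 14.2% of coding genes did, or its inverse, as 1.27% and 1.39% did.

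**Figure D4:**
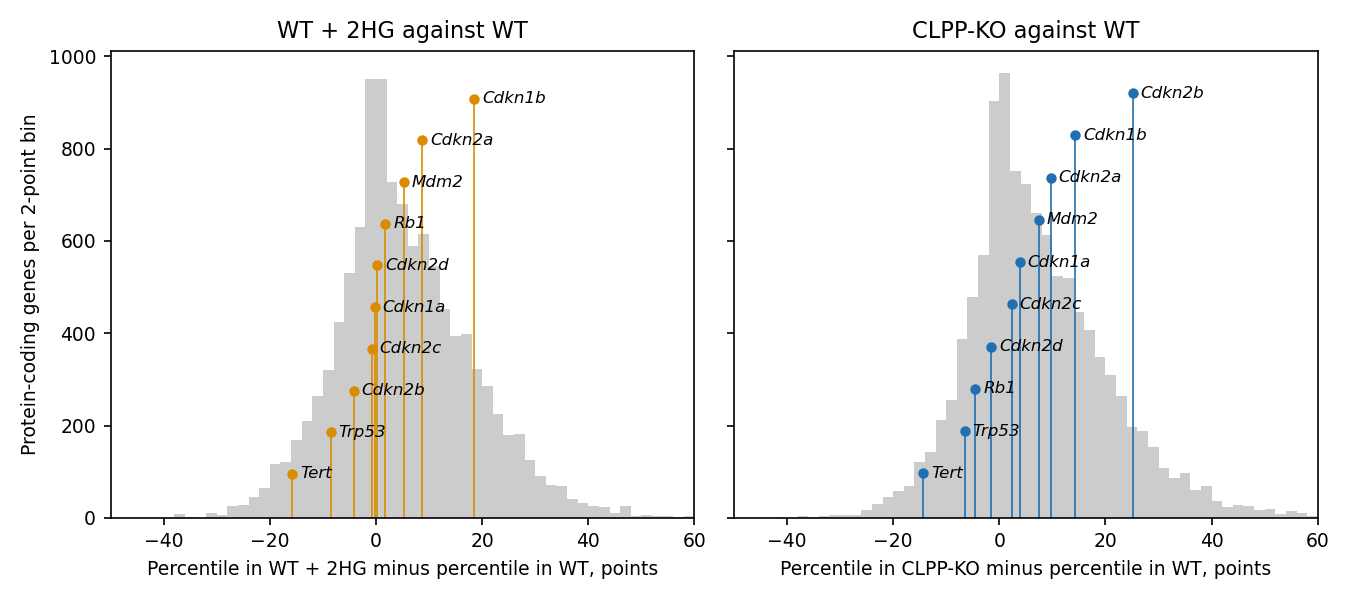
Difference in percentile from WT (horizontal axis, points) of the strongest promoter peak in WT + 2HG (left) and CLPP-KO (right), as a grey histogram of 11021 coding genes marked in all 3 lists (vertical axis, genes per 2-point bin), with each of the 10 genes as a coloured dot at its own difference (dot height only separates the labels). Tert and Trp53 are the lowest members in both panels, and Cdkn1b (18.5 points) and Cdkn2b (25.1 points) are the highest in the left and right panel.

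The genes around these brakes were described from 10 lists of 132 annotated genes, of which 103 were marked in WT, 106 with 2HG and 108 in CLPP-KO. Of all coding genes, 51.3%, 56.4% and 58.2% were marked in these lists, and 50.6% in all 3. All genes were marked in every list among the remaining CIP/KIP and pocket protein genes (3), E2F and DP factors (10), G1 and S cyclins and CDKs (10), regulators of the INK4–ARF locus (22), a list of lamin, HMGB and other senescence-associated genes (6) and proliferation genes (11). Cdkn1c, another CIP/KIP inhibitor, had 92.4 in WT, 97.5 with 2HG and 97.0 in CLPP-KO, and Rbl1, a relative of Rb1, 60.1, 68.8 and 75.7. Among E2F factors, E2f3 was the highest in WT (99.6, 99.7 and 99.7) and E2f6 the lowest (48.8, 66.6 and 68.3). Glb1, the gene of the beta-galactosidase whose activity rises in senescence, was the lowest of that list of 6 (82.1, 91.2 and 90.7). The proliferation genes ran from Mcm2, a subunit of the replicative helicase (21.7th percentile in WT), to Mki67, the gene of the Ki-67 proliferation antigen (87.4th). In the cyclin list, Ccna1, an S-phase cyclin mainly of the germ line, was the lowest in WT at 14.5 and stood at 54.4 with 2HG and 56.9 in CLPP-KO, and Cdk6 was the highest at 96.0, with 94.3 and 99.8. Among regulators of the INK4–ARF locus the lowest was the Polycomb protein gene Cbx7 (33.3, 47.7 and 43.9) and the highest Zbtb7a, a repressor of ARF (98.5, 99.6 and 99.9). Differences of the surrounding genes are given without a rank. A gene picked as the lowest in WT has more room to stand higher in another list than lower.

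Of 23 p53 target genes, 17 were marked in WT and 20 in each of the other lists. Over all coding genes, 5.64% were gained with 2HG and 7.25% in CLPP-KO. Perp (33.0 with 2HG and 32.4 in CLPP-KO) and Rprm (16.4 and 38.2), an apoptosis effector and a G2 arrest gene, had a peak in both other lists and none in WT. Sfn, the 14-3-3 sigma gene, had one in CLPP-KO only (32.7), and the death receptor gene Fas in WT + 2HG only (0.384). All 4 stood below the median of their list, and Eda2r and Tigar had no peak in any list. The highest in WT was Plk2 (93.3, 82.3 and 94.1) and the lowest Btg2 (22.6, 22.8 and 21.2). Among p53 regulators and relatives, 9 of 10 were marked in each list, from the checkpoint kinase gene Chek1 (19.5, 53.7 and 43.4) to Usp7 (89.1, 90.3 and 92.2), and Trp63 in none.

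Among the 10 lists of surrounding genes, the secretory genes of senescence had the smallest share marked. Of 24 such genes, 7 had a peak in WT, 7 with 2HG and 9 in CLPP-KO, fewer than the share of all coding genes. Il6, Il1a, Il1b and Tnf were among the 15 without a peak in any list. The chemokine gene Cxcl5 (20.7) and the stress cytokine gene Gdf15 (21.9) were marked in CLPP-KO only. Igfbp3, an IGF-binding protein gene, was picked as the lowest in WT at 11.0, against 43.8 with 2HG and 79.9 in CLPP-KO, without a rank. Vegfa was the highest, with 98.1, 99.1 and 99.2. Of 13 telomerase partner and shelterin genes 8 were marked in each list, from Wrap53, through the peaks it shares with Trp53, to Terf2ip (94.3, 86.3 and 94.6). Dkc1, Nop10, Pot1a, Pot1b and Rtel1 had no peak in any list, although Dkc1 and Nop10 encode parts of the complexes that modify ribosomal RNA in every cell, so that the lack of a peak in these lists does not show that the mark was absent. Dkc1 and the p53 target gene Eda2r lie on chromosome X, which the peak-calling command in the study's reporting summary names as excluded. Limiting the ranking to chromosomes 1 to 19 changed the percentiles, with the Cdkn2a difference in WT + 2HG going from 8.76 to 9.01 points. The lists thus hold peaks outside those chromosomes, and whether any lie on X was not checked.

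The labelled cell type was checked against its markers in the same way. Of 7 adipocyte markers, 2 had a promoter peak in WT and 3 in each of the other lists, Pparg and Cebpa among them, and Adipoq, Fabp4, Cidec and Lep had none in any list. Of 6 brown adipocyte markers, 1 was marked in WT, 2 with 2HG and 3 in CLPP-KO. Prdm16 was marked in all 3 and Ucp1, Dio2 and Ppargc1a in none. Stromal markers had 3, 2 and 3 of 4 genes marked, endothelial markers 1 of 4 in each list (Kdr), leukocyte markers none, and skeletal muscle markers 0, 1 and 2 of 4. The part of cell state or cell mixture in the values above was not tested.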

How the data were processed

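H3K4me3 ChIP–seq was performed by the authors on 12 samples of mBA cells (4 per condition), with 3 inputs. Reads were trimmed (fastp 0.23.4), mapped to GRCm39 (BWA 0.7.17) and peaks called with Genrich 0.6.1 on the 4 replicates together, per the study's methods and the submitters' processing notes. The deposited lists give each peak a score limited to 1000, a signal, which is the peak's area, and the −log10 p-value of its summit, and the authors left the q-value field at -1. The smallest area in the lists was 200.0. The peak-calling command in the study's reporting summary sets a q-value limit and a far smaller minimum area, so these values do not match that command. The reason was not determined. Reads per sample are not in these lists.

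Starts came from GENCODE M39. Starts closer than 500 bp formed a cluster. Gained, lost, 10-point and 1.5-fold limits were applied to all coding genes. Sequences were read from the GRCm39 genome, since the RefSeq promoter table is of another build. Motifs were sought on both strands. One symbol (Terc) matched 2 gene IDs and was left out. The code was tested on simulated data, recovering 2000 of 2000 planted genes. Python 3.11.15, numpy 2.4.6, pandas 2.3.3 and matplotlib 3.10.9 were used.

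The genes, lists and limits were chosen with earlier results of these data known. Named from each surrounding list were genes whose presence differed between lists and those highest and lowest in WT, except on chromosome 18. The 3 genes most like Cdkn2b were named because Cdkn2b had the widest range.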

Additional observations from a re-analysis of the deposited data

How the results depend on the processing

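Each list pools its 4 replicates, so no replicate could be left out. No paired analysis was possible because the lists carry no replicate values and no result comes from a test. The count of 10 marked members per list was the same under 7 alternatives (windows of 1000 and 3000 bp, coding transcripts only, summit in the window, area of at least 1000, summit p of 1e-05 or less, lists of equal size). With all 10 marked in WT, none could be gained under any of them. Of members at least 10 points above WT, there were 2 in WT + 2HG with area per bp (Cdkn2a and Cdkn1b) and 1 in CLPP-KO with width (Trp53). The genes differed where counts were equal: with 2HG, Cdkn1b was the gene by area, Cdkn1a by summit p (23.7 points) and Cdkn2c by width (13.4), and in CLPP-KO summit p named Cdkn2b and Cdkn1a. In CLPP-KO area per bp gave 3, Cdkn2b (36.4), Cdkn2a (22.2) and Cdkn1a (12.3), and left Cdkn1b at 9.14. Below WT in WT + 2HG there were 2 by summit p and 2 by width. Area per bp gave 3 (Tert, Cdkn2c and Cdkn1a), and lists of equal size gave 3 (Tert, Trp53 and Cdkn2b). Below WT in CLPP-KO there were 2 by summit p, 2 by area per bp and 3 in lists of equal size (Tert, Trp53 and Cdkn2d). By width of the strongest peak alone, 1 member was at least 1.5 times wider in WT + 2HG (Cdkn2c) and 1 in CLPP-KO (Trp53). In each case the wider peak ran over bases that WT split between peaks. Cdkn1b in CLPP-KO changed from 14.3 to -15.8 points when summit p replaced area. The causes were not tested. Tert stayed below WT under all 8 percentile alternatives, from -24.6 to -10.1 points in WT + 2HG and -28.2 to -12.9 in CLPP-KO, and Cdkn2b stayed above WT in CLPP-KO, from 2.60 to 40.7 points. These alternatives are not separate checks. The 1000 bp window and coding transcripts only gave the main value for both genes. Ranking among promoter peaks or among chromosomes 1 to 19 used the same areas. The lack of read counts per sample, unscaled areas and the absence of replicate values limit every difference above.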
